A study of Homo sapiens with 11 samples.

Results

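The BCL2 family of apoptosis regulators was followed through 10 of its genes: BCL2, BCL2L1, MCL1, BCL2A1, BAX, BAK1, BBC3, PMAIP1, BCL2L11 and BID. They were chosen by family, with earlier results of these data known. All 10 were found by symbol among the 28152 gene symbols of the count table, and all 10 were among the 16653 genes that passed the filter on low counts. The tumours were xenografts in the mammary fat pad of female athymic nude mice, which lack mature T cells and keep other leukocytes, and each mouse carried an estrogen pellet of 0.72 mg β-estradiol made to last 90 days. Mice became eligible once the tumour exceeded 95 cubic millimetres and received either vehicle (5% mannitol in water, 6 tumours) or evexomostat (SDX-7320, an inhibitor of methionine aminopeptidase 2) at 12 mpk in the same solution (5 tumours). Both were given under the skin every 4 days, and all tumours carry the label day 33. Each library is labelled as its own numbered sample, but no label says that each came from its own mouse, so p-values measure only the spread between these samples. The question was how the treated tumours differ from the vehicle tumours in RNA.

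Cells commit to mitochondrial apoptosis when BAX and BAK1, the effectors, form pores in the outer mitochondrial membrane and cytochrome c escapes. The prosurvival proteins BCL2, BCL-XL (from BCL2L1), MCL1 and BFL-1 (from BCL2A1) hold the effectors in check. The BH3-only proteins PUMA (from BBC3), NOXA (from PMAIP1), BIM (from BCL2L11) and BID carry stress signals to both sides, by binding the prosurvival proteins or by activating the effectors. In luminal breast cancer BCL2 is known as an estrogen-responsive gene, and MCL1 and BIM are known as outputs of HER2 signalling, largely through protein stability.

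The libraries held 22808033 to 39249329 counts, and 3 counts, the detection floor used here, corresponded to 0.0764 to 0.132 RPM (reads scaled to the library total), a floor that covers counting error only. The labels call the cells BT-474, a human breast cancer line described as hormone receptor positive and HER2 positive. The defining markers were low or near 0: ERBB2 averaged 53.7 RPM and ranked 4614 of 28152 symbols, GRB7 had 3 to 18 counts per library, ESR1 1 to 17 and PGR 0 to 5, while KRT8 averaged 332 RPM and KRT18 149. Only the labels tie these libraries to that line. Vehicle replicate 001 differed from the rest in composition. Its 100 top genes took 23.9% of counts and ribosomal protein genes 13.6%, where the other 10 libraries held 16.2% to 17.9% and 4.57% to 8.25%.

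The promoter windows of BAX and BCL2L11 are shown because, BCL2A1 aside, these members had the highest and the lowest fold change of the family. Sequences are those of RefSeq on GRCh38.p14, 5′ to 3′ on the gene's strand, and 9 of the 10 members matched the promoter table, with MCL1 not matched. Each window of 250 bases ends at a start annotated by RefSeq. The BCL2L11 window lies inside the gene's span in GENCODE 29, which begins further upstream. The BAX window reaches into that gene's GENCODE 29 span, which begins at 48954815. Its E-boxes beginning 45 and 14 bases before the RefSeq start lie inside that span. Capitals mark an E-box (CACGTG) in BAX and a FOXO motif (TGTTTAC, here as its reverse complement) in BCL2L11.
BAX, chr19:48954625-48954874, plus strand: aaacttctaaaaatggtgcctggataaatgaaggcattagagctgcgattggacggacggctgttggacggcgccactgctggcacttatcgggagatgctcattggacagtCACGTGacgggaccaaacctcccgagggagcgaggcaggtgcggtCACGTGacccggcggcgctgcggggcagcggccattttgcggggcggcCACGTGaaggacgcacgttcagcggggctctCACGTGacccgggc
BCL2L11, chr2:111120664-111120913, plus strand: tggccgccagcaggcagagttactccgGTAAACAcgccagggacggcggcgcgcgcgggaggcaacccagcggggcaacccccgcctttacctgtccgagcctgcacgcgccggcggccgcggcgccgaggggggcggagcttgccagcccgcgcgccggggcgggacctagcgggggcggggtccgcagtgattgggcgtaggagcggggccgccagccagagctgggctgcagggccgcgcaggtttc

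The windows differ in base composition. BCL2A1's was 38.8% G and C, against 62.8% in BAX, 76.8% in BCL2L11 and a median of 58% over all 35116 windows of the table. The BAX window held 4 E-boxes, beginning 138, 93, 45 and 14 bases before the start. The BBC3 window held 1, and some of the BID windows held 1 each. At least 1 E-box was present in 6.34% of all windows, and 4 or more in 5 windows (0.0142%). The FOXO motif of BCL2L11 began 223 bases before the start and was present in 2.98% of windows. The letters TATAAA were found in 10.7% of all windows. They occurred 1 time in the BCL2A1 window, 70 bases before the RefSeq start, in a stretch that GENCODE 29 annotates as untranslated region of a transcript beginning further upstream, so it is not described as a TATA box here. BCL2L1 held them 2 times in the first of its 2 windows, and the windows of the other members held none. Every motif was searched on both strands. A loose form of the NF-kB site was found in BCL2L11 alone among the members' windows and in 5.07% of all windows. TGANTCA (AP-1) was found in BBC3 alone, and in 6.57% of all windows. Such matches describe letters in these windows and are neither sites of binding nor causes of any change.

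Per kilobase of exons, the prosurvival gene MCL1 was the most abundant member in both groups by a wide margin. It reached 202.8 ± 38.9 CPM per kilobase (counts scaled to the normalised library total) (n = 6, SD) under vehicle and 192.5 ± 18.6 (n = 5, SD) under evexomostat. PMAIP1, BCL2L1 and BAX followed at 57.3 ± 15.1, 44.5 ± 7.99 and 42.6 ± 9.90 CPM per kilobase under vehicle, with overlapping ranges, so their order is not separated by the spread. Under evexomostat the same 3 genes lay at 49.1 ± 6.56, 45.9 ± 3.22 and 49.3 ± 1.88, again with overlapping ranges. BAK1 came next at 21.5 ± 4.26 under vehicle and 19.0 ± 1.95 under evexomostat, below every library's value of those 3 genes. BID (15.6 ± 3.69 and 13.5 ± 0.915), BCL2L11 (15.5 ± 4.88 and 12.4 ± 1.72) and BBC3 (10.7 ± 2.89 and 10.03 ± 2.91) overlapped with one another in both groups. BAK1 overlapped with BID under vehicle and not under evexomostat. BCL2 and BCL2A1 stood far below the rest in both groups, without overlap with BBC3, at 0.786 ± 0.173 and 0.591 ± 0.232 under vehicle. BCL2 exceeded BCL2A1 in all 6 vehicle libraries although their ranges overlapped, and the ranges did not overlap under evexomostat, where BCL2 was at 0.660 ± 0.129 and BCL2A1 at 0.159 ± 0.0568. Exon lengths came from GENCODE 29 and ran from 1089 bases for BCL2A1 to 11741 for BCL2, whose long transcript forms lower its value per kilobase.

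**Figure D1:**
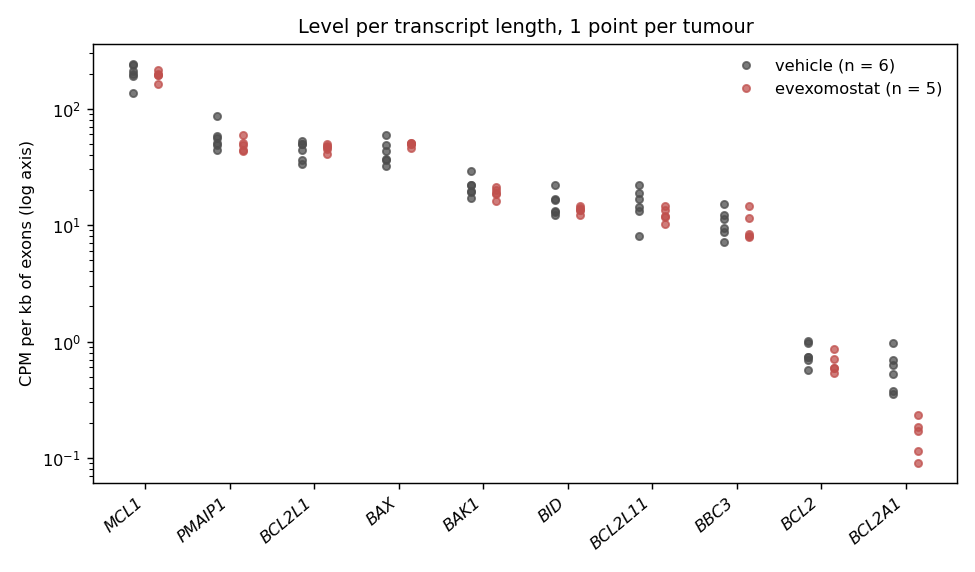
Level of each member in CPM per kilobase of exons (vertical log axis), 1 point per tumour, vehicle in grey and evexomostat in red, ordered by the vehicle mean. MCL1 lies above every other member, and BCL2 and BCL2A1 lie below the other 8, near or under 1 CPM per kilobase.

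Among the 4 prosurvival genes, BCL2A1 was lower in every evexomostat tumour than in any vehicle tumour, and the other 3 did not pass the test. BCL2A1 (chr15:79960889-79971446, minus strand, GRCh38) encodes BFL-1, a short-lived protein best known from blood cells and as an NF-kB target. In the vehicle tumours it ranged from 0.387 to 1.07 CPM with a median of 0.6254, on 13 to 29 counts per library. In the evexomostat tumours it was at 0.186, 0.202, 0.253, 0.0993 and 0.124 CPM in replicates 002, 003, 004, 005 and 007, on 3 to 7 counts. The highest treated tumour thus lay below the lowest vehicle tumour. It fell by 1.87 on the log2 scale (standard error 0.37, adjusted p 0.0462 by edgeR), a level 3.66-fold lower with a 95% interval of 2.11 to 6.37.

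The precision behind BCL2A1 is that of a trace transcript. It summed to 119 counts over the 6 vehicle libraries and 25 over the 5 evexomostat libraries, and it ranked 16066 of 16653 tested genes by mean level. Counting error alone would give a coefficient of variation of 22.5% under vehicle and 44.7% under evexomostat, beside 39.2% and 35.7% observed. All 6 vehicle libraries and 0 evexomostat libraries exceeded the filter's CPM of 0.324, so the gene entered the test through the vehicle group alone, and its count among the called genes is no support in itself. The call of 1 among 10 members stands beside 0.606% of all tested genes called in either direction and 0.432% called lower. Its lack of overlap stands beside 2.97% of tested genes without overlap, 1.64% being lower and 1.33% higher under evexomostat. An unadjusted p under 0.05 was likewise found for 1 of the 10 members, BCL2A1, and for 13.4% of all tested genes, 8.55% lower and 4.82% higher. Its adjusted p-value was under 0.05 in 7 of 22 alternatives and ranged from 0.00360 to 0.153, always with lower levels. Its log2 fold change ran from -2.05 to -0.45, the latter with limma-trend on log2(RPM + 1), a scale that compresses low values. BCL2A1's edgeR adjusted p-value rose to between 0.0706 and 0.0802 without vehicle replicate 004, 005 or 007. Without any 1 of the 5 evexomostat libraries that adjusted p-value was between 0.0808 and 0.153.

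MCL1 (chr1:150574551-150579738, minus strand) ranked 112 of all tested genes by mean CPM. It ranged from 552.2 to 987.8 CPM under vehicle with a median of 839.7, the lowest being vehicle replicate 001. In evexomostat replicates 002, 003, 004, 005 and 007 it was at 800.2, 660.8, 798.5, 868.8 and 803.5 CPM, all inside the vehicle range. The log2 fold change was -0.08 (standard error 0.16, adjusted p 0.899 by edgeR), and the interval of the fold, 0.747 to 1.21, does not exclude a level 0.747 times that of vehicle.

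BCL2L1 (chr20:31664452-31723989, minus strand) encodes the long prosurvival form BCL-XL and the short proapoptotic form BCL-XS, which counts per gene cannot separate. It ranged from 96.2 to 152.0 CPM with a median of 134.7 under vehicle, and was at 135.4, 140.7, 134.8, 116.5 and 129.2 CPM in the 5 treated tumours. The treated tumours again fell within the vehicle range, with a log2 fold change of 0.04 (standard error 0.14, adjusted p 0.934 by edgeR) and a fold interval of 0.838 to 1.27. In GENCODE 29 an antisense gene, ABALON, overlaps 42.8% of its exon bases, and the use of strand in counting is not given in the sources used here.

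BCL2 itself (chr18:63123346-63320128, minus strand) was low in every tumour. Vehicle tumours ranged from 6.65 to 11.9 CPM with a median of 8.65, and the treated tumours were at 7.01, 10.1, 8.33, 6.95 and 6.34 CPM. One treated tumour, replicate 007, lay under the vehicle range. The log2 fold change of -0.25 (standard error 0.19, adjusted p 0.643 by edgeR) had a fold interval of 0.628 to 1.12.

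**Figure D2:**
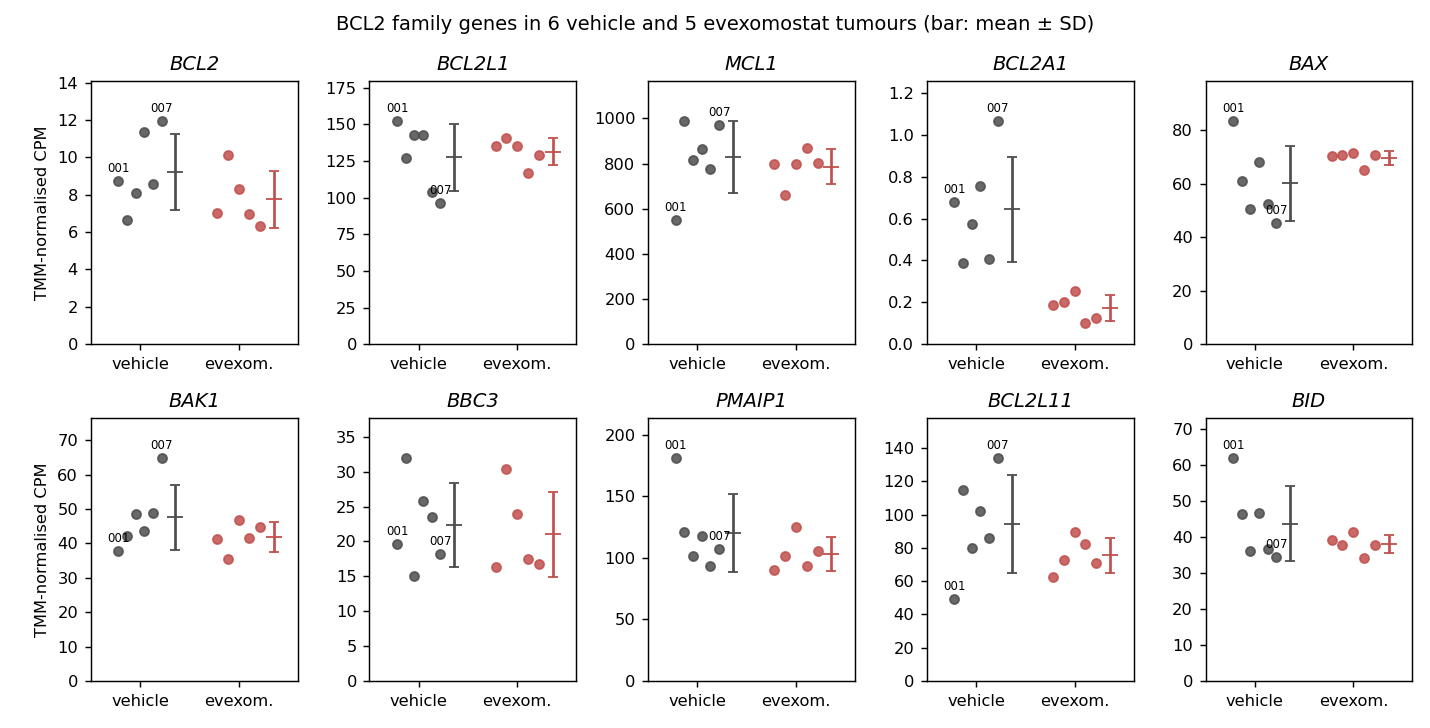
TMM-normalised CPM of each member (vertical axis from 0) in the 6 vehicle tumours (grey) and the 5 evexomostat tumours (red), 1 point per tumour, with mean ± SD beside each group and vehicle replicates 001 and 007 numbered. BCL2A1 is the 1 panel in which the groups do not overlap.

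The pair of effectors had fold changes on opposite sides of 0, and neither passed the test. BAX (chr19:48954815-48961798, plus strand), a pore former that moves from the cytosol to mitochondria, ranged from 45.1 to 83.3 CPM under vehicle with a median of 56.8. The treated tumours were tightly grouped at 70.2, 70.8, 71.6, 65.0 and 70.7 CPM, all 5 above the vehicle median and all below the highest vehicle tumour, replicate 001. The log2 fold change was 0.21 (standard error 0.15, adjusted p 0.608 by edgeR) with a fold interval of 0.925 to 1.45.

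BAK1 (chr6:33572547-33580293, minus strand), the effector that resides in the mitochondrial membrane, ranged from 37.8 to 64.9 CPM with a median of 46.0 under vehicle. It was at 41.2, 35.4, 46.8, 41.7 and 44.7 CPM in the treated tumours, 1 of which lay under the vehicle range. The log2 fold change was -0.18 (standard error 0.14, adjusted p 0.650 by edgeR) with a fold interval of 0.7103 to 1.09. GENCODE 29 lists 2 pseudogenes named for it, BAK1P1 and BAK1P2, so reads may have been shared with them. The ratio of BAX to BCL2 counts within a library, which no scaling can move, had a log2 value of 1.92 to 3.26 with a median of 2.63 under vehicle and 2.81 to 3.48 with a median of 3.23 under evexomostat, and the ranges overlapped.

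The 4 BH3-only genes all had fold changes below 0, and 0 of them had an adjusted or an unadjusted p under 0.05 in edgeR. Over all tested genes 55.4% had a fold change below 0. BCL2L11 (chr2:111119378-111168447, plus strand) encodes BIM, a broad binder of prosurvival proteins and a known FOXO target. It ranged from 49.0 to 134.2 CPM with a median of 94.2 under vehicle, and was at 62.3, 72.5, 89.3, 82.4 and 71.1 CPM under evexomostat. All 5 treated tumours were below the vehicle median but above the lowest vehicle tumour, replicate 001. The log2 fold change was -0.32 (standard error 0.21, adjusted p 0.572 by edgeR) with a fold interval of 0.581 to 1.10. The opposite-strand gene MIR4435-2HG overlaps 11.9% of its exon bases in GENCODE 29.

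PMAIP1 (chr18:59899948-59904306, plus strand) encodes NOXA, which binds MCL1 and is induced by p53 and by the integrated stress response. Under vehicle it ranged from 93.0 to 181.3 CPM with a median of 112.4, and under evexomostat it was at 90.2, 101.3, 125.2, 93.4 and 105.7 CPM. Vehicle replicate 001 lay far above the other 5, 1 treated tumour lay under the vehicle range, and the log2 fold change was -0.22 (standard error 0.17, adjusted p 0.643 by edgeR). BID (chr22:17734138-17774770, minus strand) links death receptors to mitochondria after cleavage by caspase-8. It ranged from 34.5 to 61.9 CPM with a median of 41.5 under vehicle and was at 39.1, 37.8, 41.2, 34.1 and 37.8 CPM under evexomostat, with a log2 fold change of -0.20 (standard error 0.15, adjusted p 0.643 by edgeR). All 5 treated tumours were below the vehicle median, and 1 was below the vehicle range.

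BBC3 (chr19:47220822-47232766, minus strand) encodes PUMA, a principal p53 effector in apoptosis. It ranged from 15.1 to 32.0 CPM with a median of 21.5 under vehicle and was at 16.4, 30.4, 23.9, 17.5 and 16.8 CPM under evexomostat. The spread was as wide in one group as in the other, with coefficients of variation of 27.1% and 29.03%, and the log2 fold change was -0.09 (standard error 0.22, adjusted p 0.908 by edgeR). The fold intervals were 0.664 to 1.11 for PMAIP1, 0.691 to 1.10 for BID and 0.675 to 1.30 for BBC3. For the 9 members without a call the intervals therefore hold folds from 0.581 to 1.45.

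**Figure D3:**
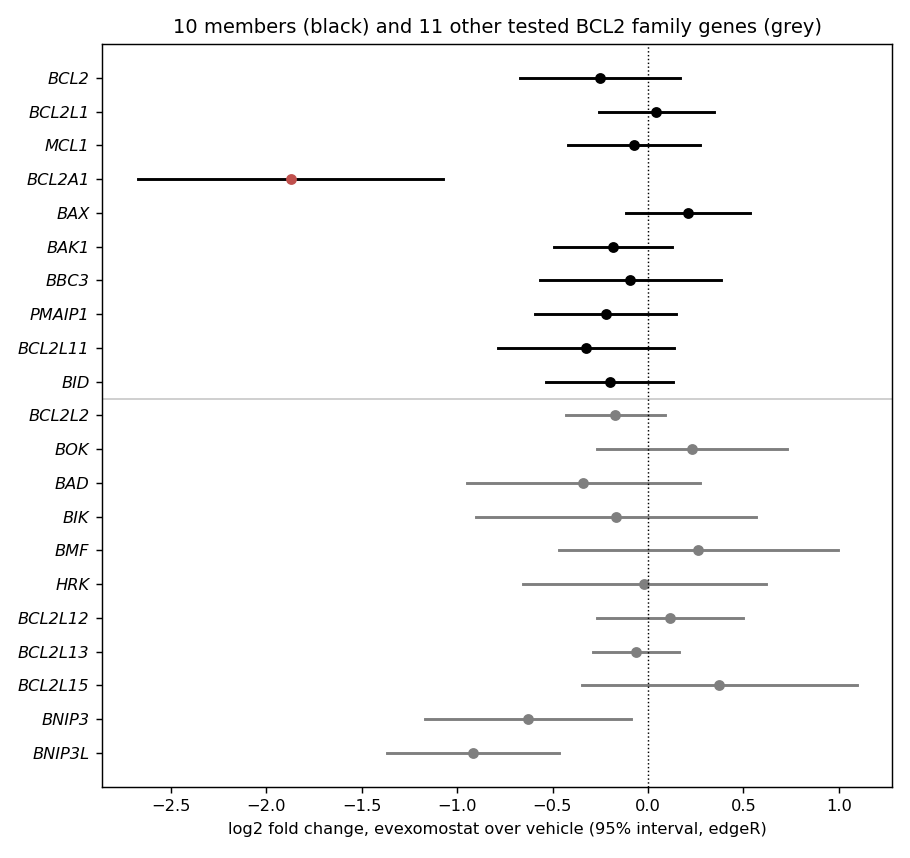
Log2 fold change of evexomostat over vehicle with its 95% interval from edgeR (horizontal axis) for the 10 members in black, with BCL2A1's point in red, and for 11 other tested BCL2 family genes in grey. The interval of BCL2A1 lies wholly below 0, as do those of BNIP3 and BNIP3L, whose adjusted p-values were 0.288 and 0.0703.

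Like most tested genes, the members varied more among vehicle tumours than among treated tumours. The coefficient of variation was lower under evexomostat in 9 of 10 members, BBC3 being the exception, beside 80.8% of all tested genes. Its median over the members was 23.5% under vehicle and 11.8% under evexomostat, and over all tested genes 28.8% and 15.98%. These coefficients include vehicle replicate 001 and were not recomputed without it. Vehicle replicates 001 and 007 often lay at opposite ends. Replicate 001 had the highest vehicle level of BCL2L1, BAX, PMAIP1 and BID and the lowest of MCL1, BAK1 and BCL2L11. Replicate 007 had the highest of BCL2, BCL2A1, BAK1 and BCL2L11 and the lowest of BCL2L1, BAX and BID. These libraries also held the largest and the smallest share of counts in ribosomal protein genes, 13.6% and 4.57%, and the part of that difference in the members' values was not tested.

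Without vehicle replicate 001 the members gave 1 call, BCL2A1, with an edgeR adjusted p of 0.0233, while 5.22% of all tested genes were called. BAX had a log2 fold change of 0.33 (standard error 0.11, adjusted p 0.0982 by edgeR) in that comparison, with the remaining 5 vehicle tumours at 45.1 to 68.2 CPM. BCL2L11 had one of -0.45 (standard error 0.15, adjusted p 0.0925 by edgeR), with those tumours at 79.8 to 134.2 CPM. Both had an unadjusted p near 0.01 (0.0115 and 0.0101), where 24.4% of tested genes had one under 0.05, and in both genes the groups still overlapped. No alternative gave any of the 9 other members an adjusted p under 0.05.

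**Figure D4:**
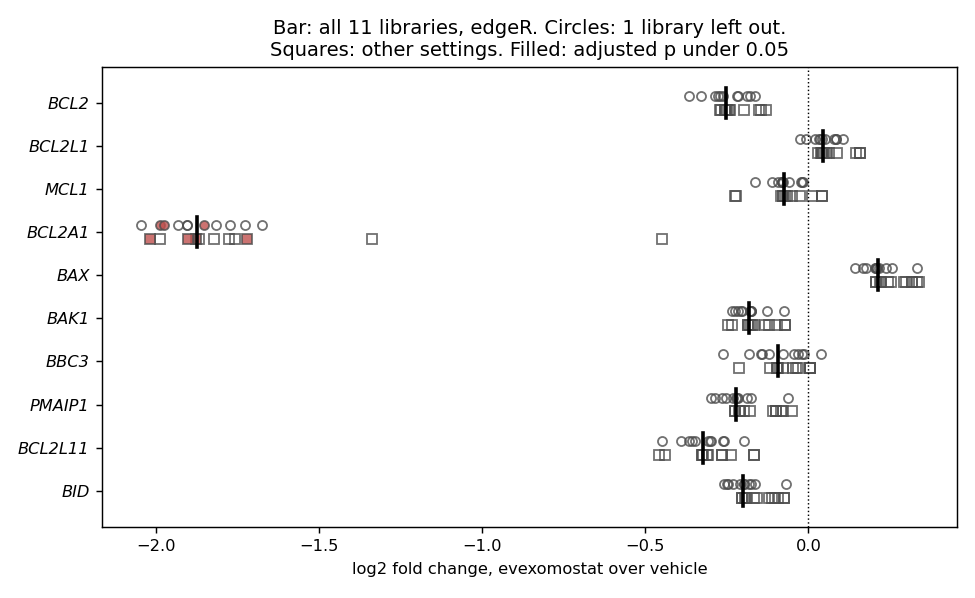
Log2 fold change of each member (horizontal axis) over all 11 libraries (black bar), with each library left out in turn (circles) and under the other settings (squares), filled where the adjusted p was under 0.05. BCL2A1 stays below 0 throughout with filled and open points, and BCL2L1, MCL1 and BBC3 cross 0.

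BCL2A1 has a log2 fold change of -1.78 and an adjusted p of 0.0143 in the authors' deposited table. BAX has 0.32 and 0.683, and BCL2L11 -0.24 and 1.00, in the authors' deposited table. Of the 10 members, BCL2A1 alone has an adjusted or an unadjusted p under 0.05 in the authors' deposited table. There 268 genes have an adjusted p under 0.05, 117 higher and 151 lower. The matching count at an unadjusted p was not made. The genes in that table were not counted either, so no share stands beside the call of BCL2A1. It rests on the same tumours and is not independent evidence. The deposited fold changes of BCL2A1, BAX and BCL2L11 lie close to those found here with library size only (-1.77, 0.32 and -0.24). In that setting BCL2A1 had an edgeR adjusted p of 0.0644 and was not called.

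Of 13 other BCL2 family genes, 11 were tested, 4 with fold changes above 0 and 7 below, and 0 were called beside 0.606% of all genes. The median log2 fold change was -0.06, where it was -0.19 over the 10 members and -0.04 over all tested genes. The 2 with an unadjusted p under 0.05, found for 13.4% of all tested genes, were BNIP3L and BNIP3, mitochondrial BH3-like proteins known for mitophagy and as hypoxia targets. BNIP3L was at 56.9 ± 20.3 CPM (n = 6, SD) under vehicle and 30.2 ± 2.81 (n = 5, SD) under evexomostat, without overlap, a log2 fold change of -0.92 (standard error 0.21, adjusted p 0.0703 by edgeR). Without vehicle replicate 001 BNIP3L was called lower (edgeR adjusted p 0.0312), where 5.22% of all tested genes were called. The adjusted p of BNIP3L was under 0.05 in 4 of 23 alternatives. BNIP3 was at 158.0 ± 69.8 and 102.1 ± 12.2 CPM, with overlap and a log2 fold change of -0.63 (standard error 0.25, adjusted p 0.288 by edgeR). BCL2L10 and BCL2L14 had at most 6 and 14 counts in a library and were not tested.

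Downstream of the family, 17 genes of the mitochondrial pathway were tested, among them cytochrome c, APAF1, the caspases and the inhibitor of apoptosis proteins. Of these, 6 had fold changes above 0 and 11 below, with a median of -0.07. The 1 called gene, beside 0.606% of all tested genes called and 0.432% called lower, was BIRC3, an inhibitor of apoptosis protein and NF-kB target, which fell from 120.2 ± 11.4 CPM (n = 6, SD) to 71.2 ± 14.7 (n = 5, SD), a log2 fold change of -0.76 (standard error 0.15, adjusted p 0.0462 by edgeR) without overlap. That call was lost without any 1 of vehicle replicates 003, 004, 006 and 007 or evexomostat replicates 002, 004, 005 and 007, with edgeR adjusted p-values of 0.0584 to 0.132. It was also lost with upper quartile scaling (0.0667), library size only (0.0926), limma-trend at both pseudocounts (0.0831 and 0.0842) and the replicate block (0.0906), and held in 10 of 23 alternatives. Its paralog BIRC2, which had the next smallest p of the list, had a log2 fold change of -0.26 (standard error 0.16, adjusted p 0.522 by edgeR).

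In the death receptor pathway, which BID joins to mitochondria, 3 of 11 tested genes had fold changes above 0 and 8 below, with a median of -0.18 and 0 calls. FAS, a receptor that triggers caspase-8, was at 25.7 ± 8.15 and 14.8 ± 5.38 CPM (log2 fold change -0.80, adjusted p 0.222 by edgeR). CFLAR, whose protein blocks caspase-8, was at 182.5 ± 61.3 and 120.5 ± 19.9 CPM (log2 fold change -0.60, adjusted p 0.231 by edgeR). Those were the 2 of the 11 genes with an unadjusted p under 0.05, beside 13.4% of all tested genes. Without vehicle replicate 001, 1 of the list was called lower, beside 5.22% of all tested genes called. It was TNFRSF10B (log2 fold change -0.31, edgeR adjusted p 0.0408), named here after its values were seen.

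Upstream, genes were grouped as NF-kB targets, p53 targets, transcription factors known to act on family members and regulators of MCL1 protein. All 11 tested NF-kB targets were below 0, with a median log2 fold change of -0.75, beside 55.4% below 0 over all tested genes. Of them 7 had an unadjusted p under 0.05, beside 8.55% of all tested genes on the lower side, and 2 were called, beside 0.432%. ICAM1, an adhesion molecule, fell from 212.7 ± 56.2 to 89.2 ± 10.6 CPM (log2 fold change -1.25, standard error 0.20, adjusted p 0.0189 by edgeR). RELB, a subunit of NF-kB and itself a target, fell from 108.6 ± 7.38 to 69.4 ± 7.47 CPM (log2 fold change -0.65, standard error 0.11, adjusted p 0.0246 by edgeR). Both calls were lost without evexomostat replicate 002, 005 or 007, and RELB's also without replicate 003, with edgeR adjusted p-values of 0.0523 to 0.110. With limma-trend on log2(RPM + 0.1) both had an adjusted p of 0.0530, and RELB's call was also lost with library size only (0.0644) and the replicate block (0.0876). ICAM1 held in 19 and RELB in 16 of 23 alternatives. Earlier results of these data were known when this list was written, so its direction is not independent evidence.

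Among 13 tested p53 targets, 3 had fold changes above 0 and 10 below, with a median of -0.14 and 0 calls. An unadjusted p under 0.05 was found for SESN2 above 0 and for PHLDA3, SESN1 and RRM2B below, where 4.82% of all tested genes had one above 0 and 8.55% below. SESN1 and RRM2B are named here after their values were seen. PHLDA3, an inhibitor of AKT, had a log2 fold change of -0.58 (edgeR adjusted p 0.194) and SESN2, a stress-induced inhibitor of mTORC1, one of 0.34 (edgeR adjusted p 0.211). The p53 target members BBC3, PMAIP1 and BAX, which are not in that list, also had fold changes on both sides of 0. None of these members passed the test, and the sign of BBC3 changed in 4 of 23 alternatives.

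Of 15 tested transcription factors, 3 had fold changes above 0 and 12 below, with a median of -0.26, and 0 were called. An unadjusted p under 0.05 in edgeR was found for 6 below 0 and 1 above. Over all tested genes the shares were 8.55% below 0 and 4.82% above. The smallest p-values belonged to REL, an NF-kB subunit, at 67.0 ± 13.2 and 39.5 ± 6.68 CPM (log2 fold change -0.76, adjusted p 0.0539 by edgeR), and STAT5A at 19.6 ± 1.26 and 13.6 ± 1.66 CPM (log2 fold change -0.53, adjusted p 0.0817 by edgeR). Without vehicle replicate 001, 6 of the 15 and 5 of the 11 NF-kB targets were called lower, and 0 higher. There 5.22% of all tested genes were called in either direction, and 37.9% of those calls were higher. Both lists were written with earlier results of these data known. The 5 genes that act on MCL1 protein stability, a control that RNA counts do not measure, had 0 calls and a median of -0.02. USP9X, a deubiquitinase of MCL1, had the smallest p of these at a log2 fold change of -0.21 (edgeR adjusted p 0.639), followed by BTRC, a ubiquitin ligase subunit, at 0.17 (edgeR adjusted p 0.748).

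**Figure D5:**
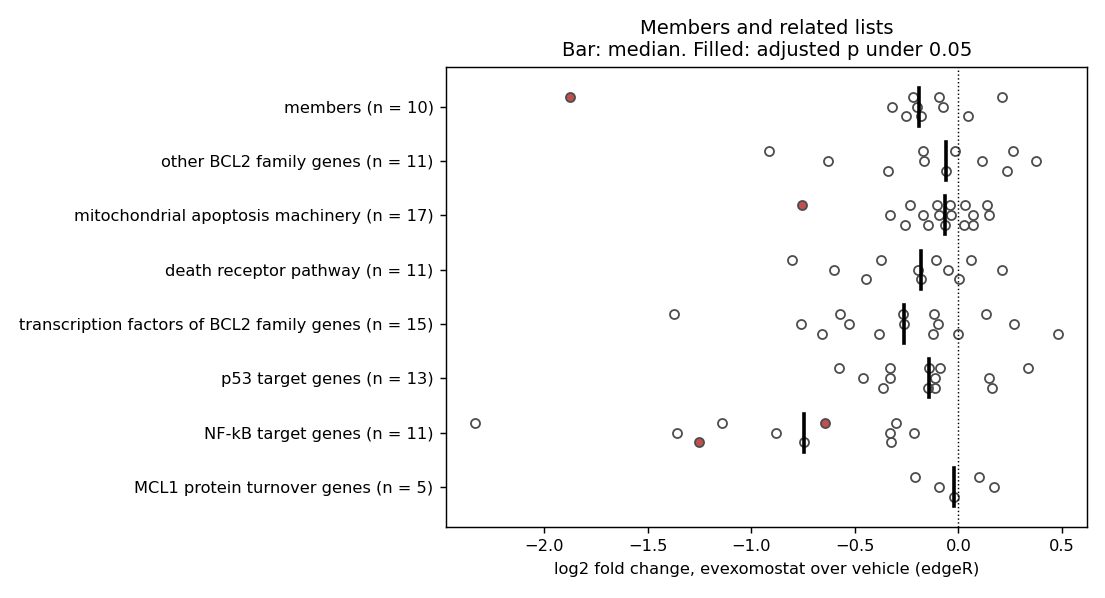
Log2 fold change of evexomostat over vehicle (horizontal axis) for each tested gene of the members and of 7 related lists, 1 point per gene, with the list median as a bar and filled points where the edgeR adjusted p was under 0.05. The 11 NF-kB targets all lie below 0 with a median of -0.75, and the other medians lie between -0.26 and -0.02.

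BCL2A1 had the smallest p-value of the members, and the genes most like it were sought among 13066 tested genes with a mean log2 CPM of at least 1. Likeness was the correlation of log2 CPM over the 11 libraries, which share 2 treatment groups, so that part of it is the group difference itself. The 5 closest were IQCG (Pearson 0.97, Spearman 0.98), BOLA3-AS1 (0.95 and 0.95), PDE4D (0.95 and 0.93), LUCAT1 (0.95 and 0.90) and CCL20 (0.94 and 0.95). Without vehicle replicate 007, the library farthest from its group mean, Pearson values were 0.97, 0.96, 0.93, 0.93 and 0.93 in the same order, and with evexomostat replicate 005 also left out 0.96, 0.95, 0.91, 0.91 and 0.92. Taken as deviations from each group's mean they were 0.89, 0.79, 0.76, 0.85 and 0.77. IQCG was at 36.5 ± 9.10 CPM (n = 6, SD) and 17.2 ± 3.34 (n = 5, SD), and CCL20, a chemokine, at 145.2 ± 96.4 and 20.9 ± 9.59 CPM. No p-value is given, since these genes were picked as the highest of many.

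Because BFL-1 is best known from blood cells, leukocyte markers are set beside the values of BCL2A1. Host leukocytes here are mouse cells, while the counts carry human symbols and the treatment of mouse reads is not given. S100A9, CD68, LYZ and ITGAM were the most abundant of the markers, at a mean of 59.4, 38.8, 27.7 and 23.8 RPM. The markers therefore need not measure leukocyte content. Their summed level was 138.4 to 245.8 RPM under vehicle and 107.5 to 197.7 RPM under evexomostat, with overlap, and 0 of 9 tested markers had an unadjusted or adjusted p under 0.05 in edgeR (6 fold changes below 0, median -0.11). PTPRC, the pan-leukocyte marker, was at 2.23 ± 0.673 CPM (n = 6, SD) and 2.23 ± 0.472 (n = 5, SD), and CD3E was at 0 counts in every library. In bulk tumours fewer cells of a type and less RNA per cell cannot be told apart. Endothelial markers summed to 11.8 to 24.9 and 12.2 to 17.1 RPM, fibroblast markers to 420.7 to 2088 and 526.5 to 1158 RPM, and adipocyte markers to 1.93 to 8.92 and 1.35 to 4.53 RPM under vehicle and evexomostat, with 0 calls. Skeletal muscle markers summed to 1.61 to 19.3 and 1.71 to 488.7 RPM, with 5 of 5 tested genes higher at an unadjusted p under 0.05, beside 4.82% of all tested genes, and 0 called. The 488.7 RPM came from evexomostat replicate 005 alone, and the other 4 treated tumours were at 1.71, 21.6, 54.5 and 4.88 RPM. Endothelial, fibroblast, adipocyte and muscle cells of the host are mouse cells too, so the same limit holds for their markers. The part of host tissue in the members' values was not tested.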

How the data were processed

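RNA of 11 xenograft tumours (6 vehicle, 5 evexomostat) was sequenced as paired reads of 150 bases from total RNA, per the labels' protocols. The deposited count table holds whole-number counts per gene symbol. The deposited RPM table holds the same counts scaled to the library total, and recomputed values differed by at most 2.27e-13. The authors' deposited comparison table holds log2 fold changes, p-values and group means. The submitters' processing notes name bcl2fastq 2.17, STAR 2.7.5c, featureCounts, Subread, edgeR and the builds GRCh37 and hg19, while the gene annotation, whether strand was used and how mouse reads were treated are not given in the sources used here. Gene positions, exon lengths and overlaps printed here are GENCODE 29 on GRCh38 and were matched by symbol. A gene that shares reads with a paralog, pseudogene, overlapping gene or mouse counterpart is uncertain to that extent.

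Genes were kept with filterByExpr (minimum count 10, minimum total 15), which left 16653 of 28152 symbols. Counts were scaled by TMM and compared with edgeR 4.0.16's quasi-likelihood test in R 4.3.3, with Benjamini-Hochberg adjustment over all tested genes and a threshold of 0.05. CPM values are TMM-normalised, fold intervals are 95% intervals from the same fit, and p-values measure the spread between these tumours. The alternatives replaced TMM by relative log expression, upper quartile or library size alone, or the test by DESeq2 1.42.0, limma 3.58.1 (voom with and without quality weights, and trend on log2(RPM + 1) and log2(RPM + 0.1)), or dropped the filter, required a mean log2 CPM of 1, added a replicate block or left out each library. The edgeR, DESeq2 and limma tests were tested on simulated data with 200 changed genes of 16505 tested (16473 with the replicate block). There edgeR recovered 61% of 2-fold and 93% of 4-fold changes with 7.23% false calls. DESeq2 recovered 72% and 95% with 17.3% false calls, and the limma settings 60% to 61% and 91% with 5.59% to 6.79%. With the replicate block edgeR recovered 9% and 70% with 5.95% false calls, so a call lost with it need not mean no change. Named genes are the 10 members, the called genes and the 2 smallest p-values of each related list, and the 5 genes most like the member with the smallest p. The members, lists and tests were chosen with earlier results of these data known. No pair of libraries was a duplicate (smallest chi-square per degree of freedom 15.5).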

Additional observations from a re-analysis of the deposited data

Results flagged for a closer look

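In 40 checks of the highest and the lowest tumour of each group, over the 10 members, 2 values stood far from the rest of their group, where chance gives about 1 for every 20 groups checked. BAX was at 65.0 CPM in evexomostat replicate 005, below the 70.2 to 71.6 CPM of the other 4 treated tumours. PMAIP1 was at 181.3 CPM in vehicle replicate 001, above the 93.0 to 121.2 CPM of the other 5 vehicle tumours.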

How the results depend on the processing

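BCL2A1 is the 1 call among the members, and it depends on the settings: the count of called members was 0 with upper quartile scaling, library size only, limma-voom, limma-trend on RPM at both pseudocounts, no count filter, a required mean log2 CPM of 1 (which leaves BCL2A1 out) and the replicate block. It ranged from 0 to 1 over the 11 comparisons that left out 1 library. The count of called genes, 101, was 62 with library size only, 649 with DESeq2, 1060 with quality weights and 1 to 865 with 1 library left out. Both groups have a replicate 003, 004, 005 and 007, and the deviations of tumours with one number correlated at -0.27, 0.07, 0.05 and -0.10. These correlations come without a test, and whether such tumours share more than a number cannot be told from them. With a replicate block on those 8 libraries 107 genes were called, and without the replicate block 733. Reversed fold changes, none past the threshold, were those of MCL1 (0.0093 with library size only, 0.0408 and 0.0409 at the RPM pseudocounts), BBC3 (0.0057 with library size only, 0.0043 and 0.0045 at the RPM pseudocounts) and BTRC (-0.0188 with the replicate block, -0.0248 without it). With 1 library left out BCL2L1 ranged from -0.0247 to 0.106 and BBC3 from -0.263 to 0.0381. The median over all genes shifted by 0.0974 with library size only and by 0.114 and 0.137 in the RPM comparisons. Higher genes were 28.7% of calls, but 40% with upper quartile scaling, 54.8% with library size only and 58.1% and 55.9% at the RPM pseudocounts. The cause was not tested. Depth limits BCL2A1 most, at 3 to 29 counts per library.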
